A study of Homo sapiens with 36 samples.

Results

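The vehicle-treated HK-2 cultures of the Ota series were compared between 72 h and 24 h of exposure. The 2 groups were taken from the sample titles and hold 3 arrays each, so 6 of the 36 arrays of the series enter the comparison directly. HK-2 is an immortalized line of human renal proximal tubular epithelial cells. The study exposed it to compounds labelled Ota (24 h and 72 h) or Aa (24 h and 48 h), at a high and a low dose that the labels do not quantify, each beside vehicle controls, in 12 groups of 3 biological replicates. Total RNA was hybridised as biotinylated cRNA to Affymetrix U133 Plus 2.0 arrays.

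The 72 h group received vehicle for 72 h and the 24 h group received vehicle for 24 h. Both were seeded 24 h before the start, in 2 ml of medium per well of a 6-well plate, and treatment began at about 90% confluency. All cultures shared a medium of DMEM and Ham's F12 with 5 mM glucose, supplemented with EGF at 10 ng/ml, hydrocortisone at 36 ng/ml, insulin at 5 µg/ml, transferrin, selenite, Glutamax and antibiotics, and no serum is listed. The labels name neither the vehicle nor any change of medium during the exposure. Time in culture, time after seeding, confluency and the age of the medium therefore move together between the groups and cannot be told apart. The series has no vehicle array at 0 h.

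Cells short of amino acids, or with unfolded protein in the endoplasmic reticulum (ER), phosphorylate the translation factor eIF2alpha, and the transcription factor ATF4 is then made and induces genes for amino acid synthesis, amino acid transport and tRNA charging. Unfolded protein in the ER also activates IRE1 and ATF6, which raise ER chaperones and the machinery of ER-associated degradation. The sugar sensor MondoA drives TXNIP, an inhibitor of glucose uptake, when glucose phosphates are plentiful, while E2F and the MuvB complexes control genes of DNA replication and mitosis in dividing cells.

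The arrays within a group resembled each other more than arrays of different times. Pearson correlations over tested genes were 0.9908 to 0.9936 within the 72 h group and 0.9863 to 0.9918 within the 24 h group, against 0.9489 to 0.9583 between times. The median log2 value of tested genes was 8.28 ± 0.02 at 72 h and 8.28 ± 0.06 at 24 h (SD, n = 3 each). A 3′-to-5′ difference for the ACTB control probe sets of 1.29 ± 0.15 log2 units at 72 h and 1.08 ± 0.24 at 24 h overlapped between the groups. Of 15 proximal tubule markers with a probe set, 5 (SLC4A4, SLC3A1, DPP4, PAX8 and GATM) were above log2 4 on all 6 arrays. The other 10 were at or under 4 on all 6, including LRP2, CUBN and AQP1, which encode the endocytic receptors and the water channel of that segment.

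A large part of the transcriptome differed between the times. In limma's moderated test over 11029 genes, 3282 genes (29.8%) passed an adjusted p of 0.05, of which 1540 (14% of those tested) were higher and 1742 (15.8%) lower at 72 h. A change of at least 2-fold was reached by 615 of the called genes in each direction (5.58% each). The 3 arrays of 72 h lay entirely above or below the 3 of 24 h for 5913 genes (53.6%). The median change of all tested genes was 0.00 log2 units. With 3 arrays a group, the number of arrays limits the precision, and in bulk RNA fewer expressing cells and less RNA per cell cannot be told apart.

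Of the 10 largest rises, 5 were in members of the ATF4 list and 3 in members of the ER chaperone list, while CADPS2 and DNAJC12 were in neither. INHBE, a secreted activin subunit, measured log2 11.94, 11.97 and 12.24 at 72 h, against 6.45, 6.45 and 6.57 at 24 h. ATF3, a stress-induced transcription factor, measured 9.56, 9.61 and 10.07 at 72 h, against 4.03, 3.38 and 5.11 at 24 h. DDIT3, which encodes the transcription factor CHOP, measured 12.71, 12.59 and 12.80 at 72 h, against 7.62, 7.72 and 7.45 at 24 h. All 3 genes were separated without overlap. The changes were 5.56 ± 0.36 (SE) for INHBE, 5.58 ± 0.40 for ATF3 (5.37 with values at or under 4 set to 4) and 5.10 ± 0.46 for DDIT3, which are 47.1-fold, 47.8-fold and 34.4-fold (adjusted p = 9.47e-08, 1.54e-07 and 1.21e-06, limma). The remaining rises among the 10 were SLC7A11 (cystine import, 4.55), ERO1B (oxidation of ER proteins, 23.4-fold), SDF2L1 (ER protein folding, 4.42), ERN1 (the sensor IRE1, 4.04), CADPS2 (vesicle release, 3.64), DNAJC12 (a J-domain co-chaperone, 12.4-fold) and ALDH1L2 (mitochondrial folate metabolism, 4.74, or 4.51 with the floor).

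The 10 largest falls were led by TXNIP and by genes of DNA replication and mitosis. TXNIP measured log2 4.69, 4.13 and 3.73 at 72 h, against 10.27, 10.04 and 10.31 at 24 h. It fell by 6.02 ± 0.44 (65.0-fold lower, adjusted p = 1.72e-07), to the edge of the range the arrays resolve. MCM10, which helps activate the replicative helicase, measured 3.87, 3.99 and 4.25 at 72 h, against 8.15, 7.85 and 7.98 at 24 h (change -3.96 ± 0.15, adjusted p = 2.28e-10). Neither gene's groups overlapped. BLM (a DNA helicase, -3.28, or -3.17 with the floor), NCAPH (condensin, -3.15), SPC25 (kinetochore, -3.06), POLQ (DNA polymerase theta, -2.98) and ASF1B (histone chaperone, -2.90) were also among the 10. CRYM, a thyroid hormone-binding protein, changed by -3.01. GAL, a neuropeptide, and SCN3A, a sodium channel subunit, were at or under 4 on all 3 arrays of 72 h, which gives falls of at least 13.9-fold and at least 7.40-fold.

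**Figure D1:**
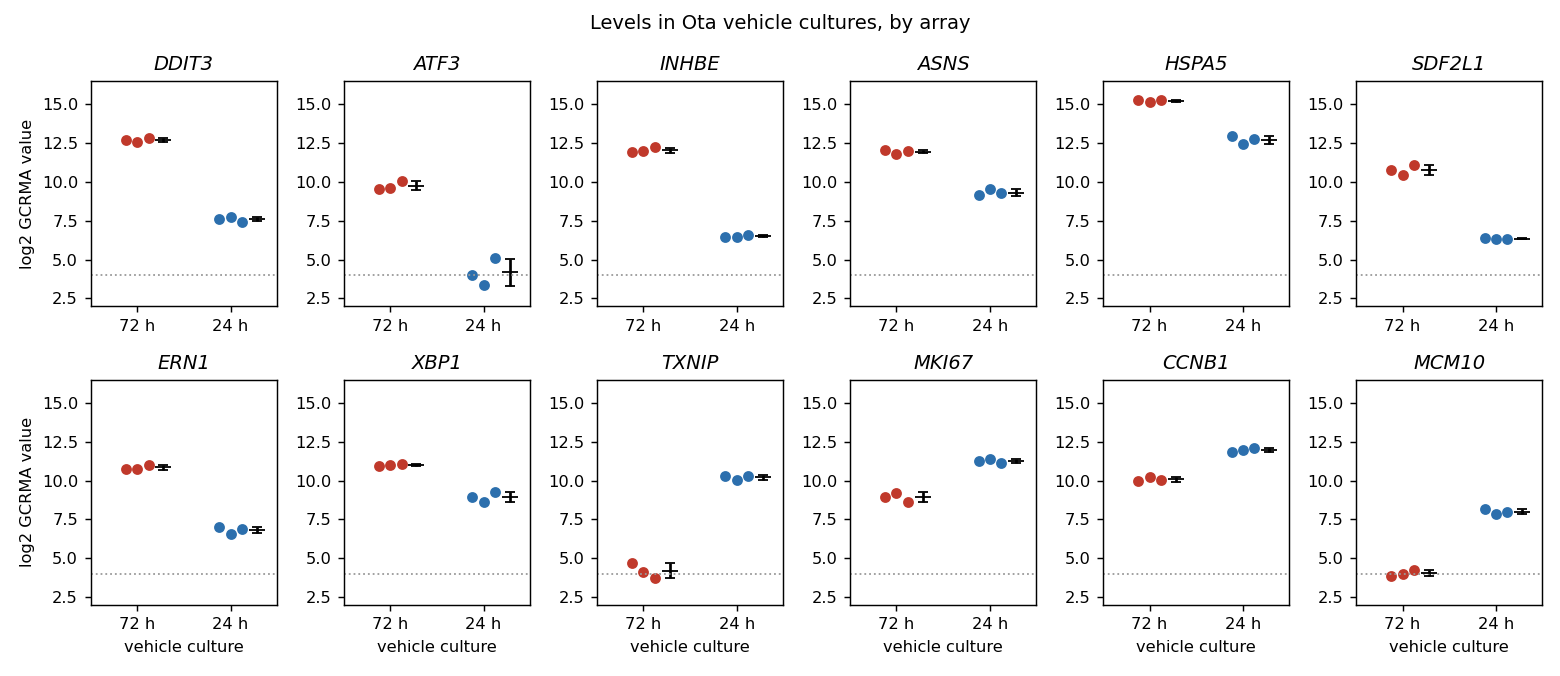
Log2 GCRMA values of 12 genes on each of the 6 arrays, with the 72 h vehicle cultures (red) left of the 24 h vehicle cultures (blue). Points are arrays, the black marks are the mean ± SD of 3, and the dotted line is log2 4; TXNIP is near that line at 72 h and DDIT3 rises to between 12.59 and 12.80.

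Genes of ER protein folding rose almost as a block. Of 29 tested members of the list of ER chaperones and the unfolded protein response, 28 (96.6%) were higher and 0 lower, against 14% of all tested genes called higher, and the list's median change was 2.11. HSPA5, the main ER chaperone BiP, measured log2 15.26, 15.15 and 15.27 at 72 h, against 12.97, 12.42 and 12.74 at 24 h. Its change was 2.52 ± 0.21 (5.74-fold, adjusted p = 6.67e-07), with all 72 h arrays near the top of the deposited range, which ended at 16.09. The other probe set of HSPA5 was also called higher, by 5.45 log2 units, so the size of the rise depends on the probe set.

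The rise covered sensors, chaperones, oxidoreductases and degradation factors. Among the sensors and their targets, ERN1 measured 10.76, 10.78 and 11.03 at 72 h, against 7.00, 6.58 and 6.87 at 24 h. XBP1, the transcription factor whose mRNA IRE1 splices, measured 10.93, 11.03 and 11.06 at 72 h, against 8.95, 8.64 and 9.26 at 24 h (change 2.06 ± 0.24). ATF6 changed by 1.22, the smallest of the 3. The array reads the XBP1 mRNA as a whole and gives no measure of its splicing.

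SDF2L1 measured 10.76, 10.47 and 11.09 at 72 h, against 6.36, 6.34 and 6.35 at 24 h, and its groups were far apart (21.4-fold). Other folding genes rose by 3.44 (CRELD2), 3.27 (HYOU1), 3.00 (DNAJB9), 2.71 (DNAJC3), 2.62 (MANF), 2.53 (PDIA4), 2.11 (HSP90B1, the chaperone GRP94) and 1.88 (CALR, calreticulin). HERPUD1 and SEL1L, parts of ER-associated degradation, changed by 3.02 and 2.38. P4HB, a protein disulfide isomerase, had the smallest called rise (0.51). ERO1A, which feeds oxidizing power to that isomerase, was the member that did not pass (0.32, adjusted p = 0.0869), while its paralogue ERO1B rose 23.4-fold.

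Cytosolic chaperones did not move this way. Of 15 tested genes of the cytosolic heat shock list, 0 were higher and 5 lower (33.3%, against 15.8% of all tested genes), with a median of -0.22. The count was 2 to 3 with any 1 of the 6 arrays left out, which is near the share over all genes. The 3 largest called falls were STIP1, a cochaperone of HSP90 (-0.64), and the small heat shock proteins HSPB1 (-0.55) and CRYAB (-0.53). The calls for HSPB1 (adjusted p = 0.0326) and CRYAB (0.0488) were lost under several of the alternatives described in the closing section.

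The promoter of HSPA5 is shown because its element is the textbook site of the ER stress response. It is the stretch of 250 bases before the gene's start (RefSeq, GRCh38.p14, chr9:125241344-125241593, minus strand), with the ER stress response element in capitals, searched on both strands as CCAAT and CCACG separated by 9 bases. The element was found in 7 of 27 list members with a promoter entry (25.9%), against 0.153% of the promoters of tested genes and 0.0806% of all 27305 promoters. Its first letters are also a CCAAT box, which 24 of the 27 members (88.9%) and 33.0% of all promoters hold. A match is a description of letters and not of binding.
HSPA5: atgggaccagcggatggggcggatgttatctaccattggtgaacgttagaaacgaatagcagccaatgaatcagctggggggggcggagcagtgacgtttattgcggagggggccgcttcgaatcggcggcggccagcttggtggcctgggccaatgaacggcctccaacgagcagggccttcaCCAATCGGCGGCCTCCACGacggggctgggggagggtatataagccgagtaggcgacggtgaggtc

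Targets of ATF4 were higher as a group. Of 42 tested members of the amino acid response list, 37 (88.1%, against 14% of all tested genes) were higher and 0 lower. The median change was 1.57. ATF4 itself, whose mRNA is also induced by stress, measured 13.74, 13.93 and 13.85 at 72 h, against 12.32, 12.34 and 12.20 at 24 h (change 1.56 ± 0.13, adjusted p = 4.01e-07). The 24 h arrays were already high, so ATF4 mRNA was abundant at both times.

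ASNS, asparagine synthetase, measured 12.03, 11.82 and 12.02 at 72 h, against 9.14, 9.55 and 9.27 at 24 h (change 2.63 ± 0.24, 6.21-fold, adjusted p = 1.41e-06). CHAC1, which degrades glutathione, measured 7.74, 7.61 and 7.07 at 72 h, against 4.37, 5.30 and 4.38 at 24 h (change 2.79 ± 0.44, adjusted p = 0.000198). Neither gene's groups overlapped. TRIB3, a pseudokinase that restrains ATF4 output, rose by 2.01 ± 0.19, and SESN2, a leucine sensor that inhibits mTORC1, rose 2.98-fold.

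Amino acid carriers were among the larger rises. SLC7A11 measured 11.21, 11.003 and 11.27 at 72 h, against 6.61, 6.32 and 6.88 at 24 h. SLC7A5 and SLC3A2, the subunits of a leucine transporter, changed by 2.89 and 2.71. The glycine transporter SLC6A9 was at or under 4 on all 3 arrays of 24 h and was at least 1.65-fold higher at 72 h. The enzymes PHGDH, PSPH and PSAT1 of serine synthesis changed by 1.09, 1.25 and 0.53, and MTHFD2 and SHMT2 of mitochondrial one-carbon metabolism by 1.71 and 1.29. NUPR1, a stress-response nuclear protein, was at or under 4 on all 3 arrays of 24 h and was at least 4.36-fold higher at 72 h. The 5 members that did not pass were ALDH18A1, ATF5, VLDLR, SLC38A2 and DDIT4. DDIT4, an inhibitor of mTORC1, was high at both times, at 13.47, 13.24 and 13.46 at 72 h and 13.05, 13.12 and 12.83 at 24 h (change 0.39 ± 0.14, adjusted p = 0.05). It passed in 7 of the alternatives run.

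The enzymes that charge tRNAs in the cytosol moved in the same direction, but fewer of them. Of 17 tested, 10 (58.8%, against 14% of all tested genes) were higher and 0 lower, with a median of 0.71. WARS1 for tryptophan measured 12.01, 11.63 and 12.13 at 72 h, against 9.73, 9.66 and 9.59 at 24 h, without overlap, and rose by 2.26. AARS1 for alanine and SARS1 for serine followed with 1.99 and 1.71. HARS1 for histidine had a change of -0.55, VARS1 for valine of -0.26 and KARS1 for lysine of -0.11, none of which passed. With the 6 arrays fitted alone, 2 of the 17 were called lower.

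ASNS is shown because its promoter holds the element through which ATF4 and C/EBP proteins act. The window is 250 bases before its start (RefSeq, GRCh38.p14, chr7:97872409-97872658, minus strand), with the match to TGATGNAA in capitals, searched on both strands. Within the list, 3 of 33 members with a promoter entry (9.09%) hold those letters in this window, against 1.36% for tested genes and 3.19% of all promoters. No match was found in the windows of DDIT3, TRIB3 and SESN2, which says only that these letters are not there.
ASNS: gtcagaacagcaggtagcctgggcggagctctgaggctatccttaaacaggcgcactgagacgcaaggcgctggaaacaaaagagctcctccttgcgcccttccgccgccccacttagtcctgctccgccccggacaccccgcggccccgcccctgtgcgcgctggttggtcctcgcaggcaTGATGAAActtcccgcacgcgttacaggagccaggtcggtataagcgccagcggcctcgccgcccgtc

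**Figure D2:**
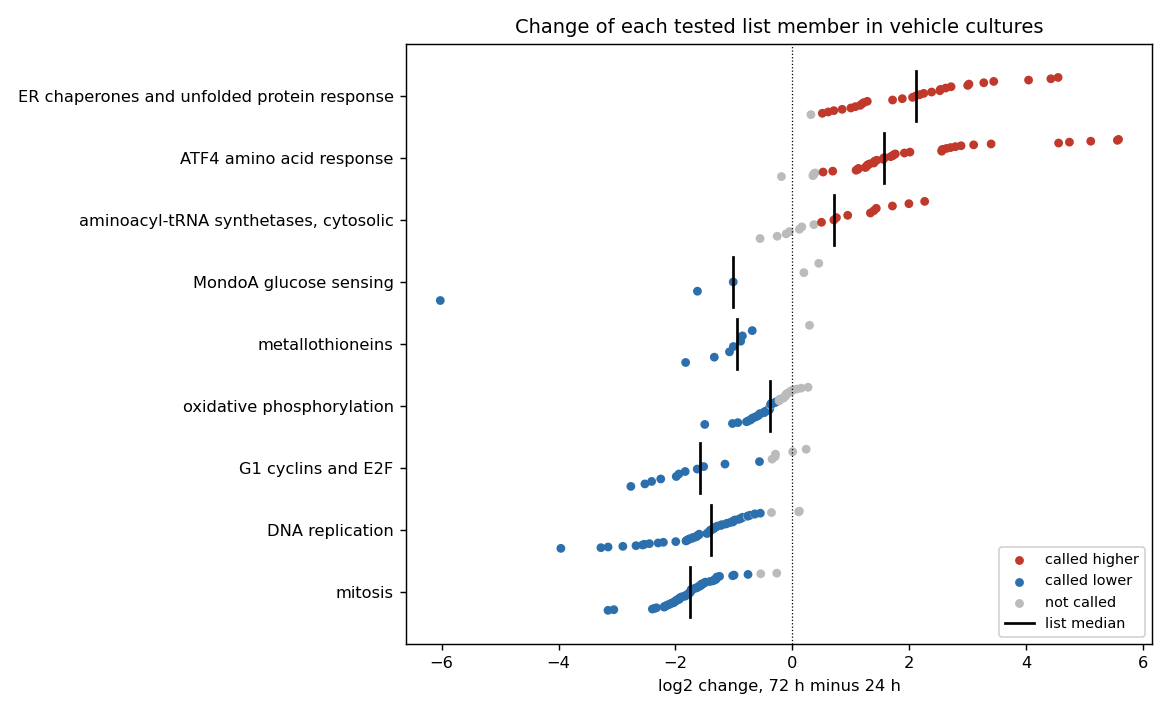
Log2 change (72 h minus 24 h) of each tested member of 9 gene lists in vehicle cultures, 1 point a gene, ordered within its list. Red points are called higher, blue points lower and grey points not called, and the black bar is the list's median, from 2.11 for ER chaperones to -1.75 for mitosis.

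TXNIP was the largest fall, and its neighbours in the MondoA list fell less. Of 5 tested members, 3 were lower (60.0%, against 15.8% of all tested genes) and 0 higher. ARRDC4, an arrestin that like TXNIP limits glucose uptake, measured 3.25, 3.24 and 3.74 at 72 h, against 5.22, 4.56 and 5.32 at 24 h, which is at least 2.05-fold lower. ARRDC3, a related arrestin, changed by -1.01 ± 0.20. ARRDC2 (0.45) and MLXIP (0.20), which encodes MondoA, did not pass. Both other probe sets of TXNIP fell too, by 6.13 and 7.10 log2 units.

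The promoter of TXNIP carries the carbohydrate response element, the known site of MondoA. It is 250 bases before the start (RefSeq, GRCh38.p14, chr1:145996580-145996829, minus strand), with the match to 2 copies of CACGNG separated by 5 bases, searched on both strands, in capitals. Of the 5 tested members, TXNIP alone holds these letters in the window, as do 0.131% of the promoters of tested genes and 0.0586% of all promoters.
TXNIP: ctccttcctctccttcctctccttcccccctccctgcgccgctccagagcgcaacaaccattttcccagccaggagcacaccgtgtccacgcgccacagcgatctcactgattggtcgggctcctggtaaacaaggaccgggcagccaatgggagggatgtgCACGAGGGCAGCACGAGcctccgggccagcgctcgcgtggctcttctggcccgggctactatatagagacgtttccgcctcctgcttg

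Glycolytic and hypoxia genes went both ways. Of 35 tested, 6 were higher (17.1%) and 12 lower (34.3%), against 14% and 15.8% of all tested genes, and the median was -0.04. The 12 lower genes were HK1, GPI, PFKP, ALDOA, TPI1, PGK1, PGAM1, ENO1, ENO2, PKM, LDHA and EGLN3. HK1, a hexokinase, measured 9.70, 9.60 and 9.40 at 72 h, against 10.92, 11.08 and 10.66 at 24 h (change -1.32 ± 0.19). PKM, pyruvate kinase, changed by -1.32 and LDHA, lactate dehydrogenase, by -0.78. Among the rises, VEGFA, an angiogenic factor that is also a member of the ATF4 list, measured 11.66, 11.57 and 11.95 at 72 h, against 9.91, 9.76 and 10.22 at 24 h (change 1.76 ± 0.23), and the hexokinase HK2 rose 2.01-fold.

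Mitotic genes were lower nearly without exception. Of 59 tested, 57 (96.6%) were lower and 0 higher, against 15.8% of all tested genes called lower, and the median change was -1.75. MKI67, the proliferation antigen Ki-67, measured 8.97, 9.22 and 8.59 at 72 h, against 11.28, 11.36 and 11.12 at 24 h (change -2.33 ± 0.21, 5.01-fold lower, adjusted p = 1.14e-06). CCNB1, the mitotic cyclin, measured 9.95, 10.26 and 10.04 at 72 h, against 11.87, 11.97 and 12.13 at 24 h (change -1.91 ± 0.25, adjusted p = 3.76e-05). Both remained well above the floor at 72 h, so the transcripts were lower but still present.

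The mitotic kinases and motors moved together. CDK1, the kinase partner of cyclin B, changed by -1.41, PLK1 by -1.99, AURKA by -1.98, AURKB by -1.94 and TOP2A, which untangles chromosomes, by -1.31. FOXM1, the transcription factor that drives many of these genes, measured 7.17, 7.10 and 7.02 at 72 h, against 9.35, 9.23 and 9.13 at 24 h, without overlap (change -2.14). ANLN, a scaffold of the cleavage furrow, and KIF20A, a cytokinesis kinesin, changed by -2.40 and -2.36. The members that did not pass were CDC25B (-0.54), a CDK phosphatase, and BUB3 (-0.27), a spindle checkpoint protein.

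Of 56 tested DNA replication genes, 51 (91.1%, against 15.8% of all tested genes) were lower and 0 higher, with a median of -1.39. MCM2, a subunit of the replicative helicase, measured 11.38, 11.37 and 11.11 at 72 h, against 12.34, 12.49 and 12.26 at 24 h (change -1.07 ± 0.15, adjusted p = 7.69e-05). The other helicase subunits MCM3 to MCM7 changed by -1.14 to -1.995. The sliding clamp PCNA fell by 1.46, the nucleotide enzymes TK1, TYMS and RRM2 by 2.45, 1.76 and 1.60, and the origin factors ORC1 and CDC45 by 2.56 and 2.30. Licensing factors CDT1 (-0.64) and CDC6 (-0.36) did not pass, nor did TIPIN (-0.77), PRIM1 (0.11) and RFC5 (0.12).

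Genes of the transition into S phase were mostly lower. Of 16 tested genes of the G1 and E2F list, 11 (68.8%, against 15.8% of all tested genes) were lower and 0 higher. The median was -1.57. E2F1 measured 5.95, 5.96 and 6.00 at 72 h, against 7.13, 7.25 and 7.00 at 24 h (change -1.15 ± 0.13). E2F8, MYBL2 and E2F2 had larger falls (-2.76, -2.52 and -2.41), and cyclins CCNE1 and CCNE2 changed by -2.25 and -1.99. CCND1, the growth factor-induced cyclin D1, measured 6.19, 5.67 and 5.38 at 72 h, against 7.77, 6.75 and 7.26 at 24 h (change -1.52 ± 0.33, adjusted p = 0.00269). MYC, a driver of growth, did not pass, with 12.24, 11.69 and 11.86 at 72 h and 11.84, 11.65 and 11.59 at 24 h (0.24 ± 0.17, adjusted p = 0.328). CCND2, CCND3, CDK4 and CDK6, the other early G1 members, did not pass either, with changes of -0.35 to 0.01.

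Inhibitors of the cycle showed no such pattern. Of 22 tested genes of the CDK inhibitor and quiescence list, 3 were higher (BTG1, HES1 and MXD1) and 4 lower (CDKN2D, GAS2L1, RBL1 and CDKN2A). These are 13.6% and 18.2%, near the 14% and 15.8% of all tested genes. BTG1, an antiproliferative protein, measured 13.001, 13.26 and 12.81 at 72 h, against 12.09, 11.89 and 11.86 at 24 h (change 1.08 ± 0.18). CDKN1A, which encodes p21, measured 9.05, 9.01 and 9.04 at 72 h, against 8.79, 8.21 and 8.53 at 24 h. Its groups did not overlap, as was so for 53.6% of all tested genes. The change of 0.53 ± 0.20 missed the threshold (adjusted p = 0.0546) and passed in 6 of the alternatives. CDKN1B (p27), CDKN1C (p57) and CCNG2, other inhibitory members, had changes of 0.30, 0.59 and 0.38 that did not pass (adjusted p = 0.169, 0.176 and 0.182). The array measures mRNA, so neither protein levels nor the number of dividing cells was read.

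Replication-dependent histone genes were called in both directions. Of 17 tested, 2 were higher and 2 lower (11.8% each, against 14% and 15.8% of all tested genes). In the 12 control arrays only 7 genes of the list passed the filter on low values. Members that failed it there were tested here only because of dosed arrays. The shares of the 17 therefore do not show how often measurable members were called. H2AC6 measured 7.90, 7.71 and 7.82 at 72 h, against 4.93, 4.06 and 5.62 at 24 h (change 2.94 ± 0.28), while H1-2 was at least 3.28-fold lower. Histone genes are near-identical and probe sets can share signal, so single members are uncertain.

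Promoters of MKI67 and E2F1 are shown as examples of motifs that were counted in the mitosis and replication lists. E2F1 itself was reported above with the G1 and E2F list. Each window is 250 bases before the start (RefSeq, GRCh38.p14), at chr10:128126424-128126673, minus strand, for MKI67 and chr20:33686386-33686635, minus strand, for E2F1. Capitals mark, in MKI67, the cell cycle homology region, searched as TTTGAA or TTCGAA, and in E2F1, E2F motifs, searched as TTTGGCGC, TTTCGCGC, TTTCCCGC or TTTGCCGC, all on both strands. The homology region was found in 26 of 50 mitosis members with an entry (52.0%), against 9.73% for tested genes and 14.6% of all promoters. An E2F motif was found in 13 of 49 replication members (26.5%), against 4.69% for tested genes and 2.79% of all promoters. The windows of CCNB1 and MCM2 hold no match to the motif of their group.
MKI67: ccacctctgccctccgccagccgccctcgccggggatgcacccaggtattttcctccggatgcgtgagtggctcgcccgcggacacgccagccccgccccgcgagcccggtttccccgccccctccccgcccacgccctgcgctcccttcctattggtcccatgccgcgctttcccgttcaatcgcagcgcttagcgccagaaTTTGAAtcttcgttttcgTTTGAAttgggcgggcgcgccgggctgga
E2F1: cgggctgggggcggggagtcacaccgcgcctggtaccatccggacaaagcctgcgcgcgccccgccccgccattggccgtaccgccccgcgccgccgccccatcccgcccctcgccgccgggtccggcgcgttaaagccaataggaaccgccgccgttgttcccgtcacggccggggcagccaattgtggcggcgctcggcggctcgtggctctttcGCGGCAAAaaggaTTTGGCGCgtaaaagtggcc

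**Figure D3:**
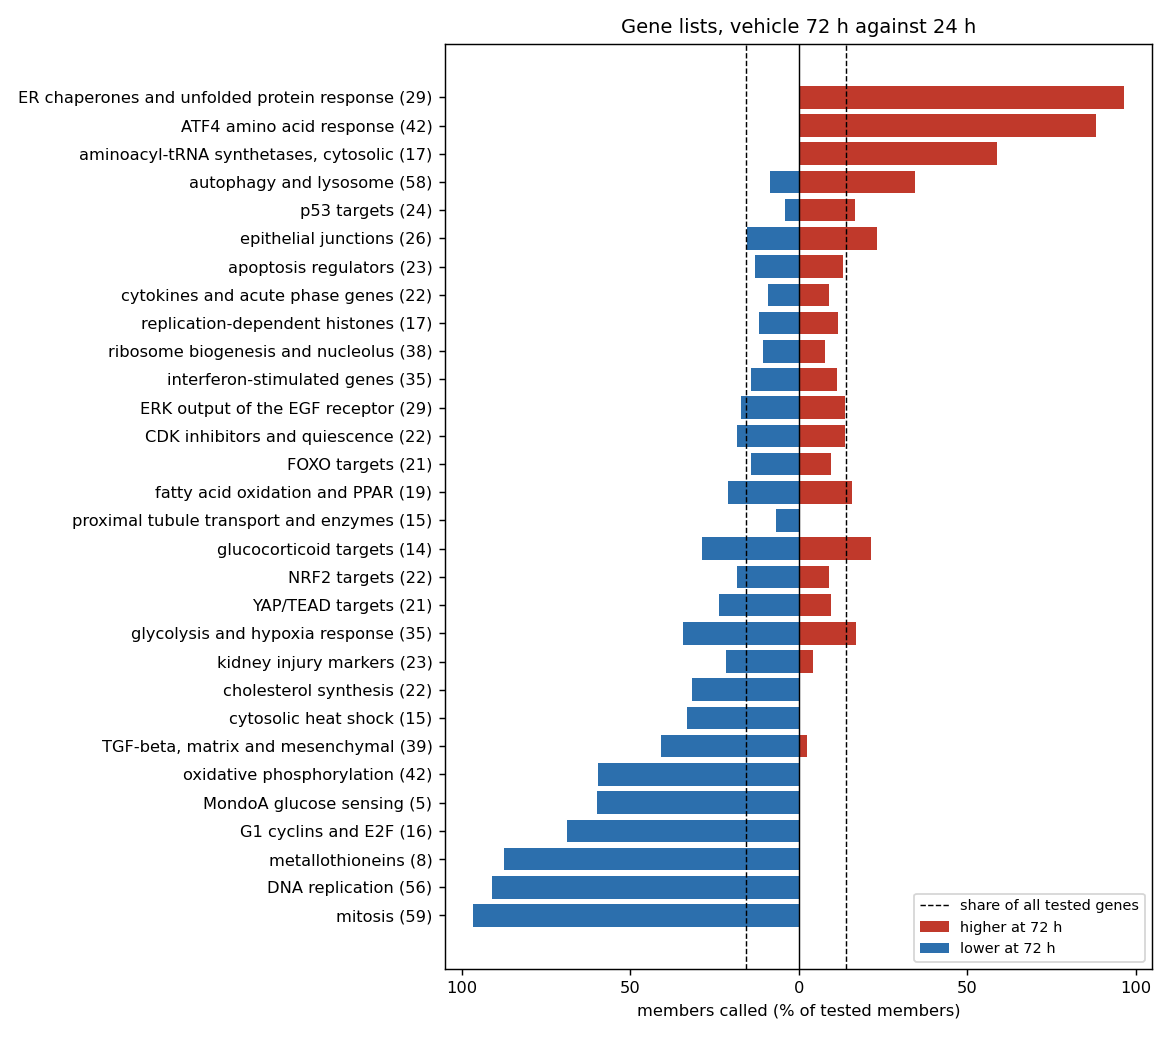
Share of tested members called higher (red, to the right) or lower (blue, to the left) at 72 h relative to 24 h in 30 gene lists, with the number of tested members in brackets. Dashed lines are the shares over all tested genes, 14% higher and 15.8% lower; the lists of ER chaperones and mitosis reach 96.6% in opposite directions.

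Mitochondrial and fuel-use lists were examined next. Of 42 tested genes of oxidative phosphorylation, 25 (59.5%, against 15.8% of all tested genes) were lower and 0 higher, with a small median of -0.38. With 1 array left out the count was 15 to 18, the lowest without 72 h replicate 3 and 16 without 24 h replicate 1. ATP5MC1, a subunit of the ATP synthase, had the largest fall (-1.50 ± 0.24), then SDHA of complex II (-1.03) and UQCRC1 of complex III (-0.93, with a call that was lost without 24 h replicate 2). Of 19 tested genes of fatty acid oxidation and PPAR signalling, 3 were higher (15.8%) and 4 lower (21.1%), against 14% and 15.8% of all tested genes. PDK4, a kinase that is induced by fasting and turns off pyruvate oxidation, measured 11.28, 11.91 and 11.49 at 72 h, against 12.48, 12.81 and 12.69 at 24 h, and fell by 1.10 ± 0.18. Of 21 tested FOXO targets, 2 were higher (9.52%) and 3 lower (14.3%), each below the share over all genes. IRS2, an adaptor of the insulin receptor, overlapped between the groups (change 0.00 ± 0.16).

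Autophagy and lysosome genes rose more often than genes in general. Of 58 tested, 20 (34.5%) were higher and 5 (8.62%) lower, against 14% and 15.8% of all tested genes, although the median was only 0.17. WIPI1, a protein of the nascent autophagosome, measured 9.90, 9.38 and 10.11 at 72 h, against 7.91, 8.19 and 7.99 at 24 h (change 1.76 ± 0.33). The autophagosome proteins GABARAPL1 and MAP1LC3B and the receptor SQSTM1 (p62) rose by 1.24, 1.01 and 1.01. GLA, a lysosomal galactosidase, went the other way (-1.40).

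Cholesterol and fatty acid synthesis genes had 7 of 22 lower (31.8%, against 15.8% of all tested genes) and 0 higher, with a median of -0.05. Without 24 h replicate 1 the count was 4, which is near the share over all genes. FASN, fatty acid synthase, measured 8.19, 8.07 and 7.72 at 72 h, against 9.81, 9.81 and 9.45 at 24 h (change -1.70, or 3.24-fold lower), and EBP and FDPS of the sterol pathway changed by -0.88 and -0.81. Metallothioneins and zinc carriers had 7 of 8 lower (87.5%), led by MT1M (-1.83), the zinc importer SLC39A10 (-1.34) and MT1X (-1.08). Metallothionein genes are close copies, so their probe sets can share signal. Of 38 ribosome biogenesis genes, 3 were higher and 4 lower, each below the share over all genes.

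Targets of the EGF receptor and of glucocorticoids were called in both directions. Of 29 tested genes of the ERK list, 4 were higher (13.8%) and 5 lower (17.2%). These shares are near those over all tested genes (14% and 15.8%). EREG, an EGF receptor ligand, measured 10.91, 11.32 and 11.42 at 72 h, against 9.04, 8.86 and 9.14 at 24 h (change 2.20 ± 0.34), while PLAUR, the urokinase receptor, fell by 1.49. The feedback inhibitors DUSP6 (-0.30, adjusted p = 0.337) and SPRY4 (-0.07, adjusted p = 0.859) did not pass. Of 14 tested glucocorticoid targets, 3 were higher (21.4%) and 4 lower (28.6%). CRISPLD2, a secreted protein, and TSC22D3 (GILZ) rose by 1.43 and 1.05. FKBP5, a cochaperone of the receptor, had -0.64 ± 0.28 (adjusted p = 0.104, and 0.0120 with the 6 arrays alone).

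Matrix genes were called lower more often than genes in general, and epithelial genes were called in both directions. Of 39 tested genes of the TGF-beta, matrix and mesenchymal list, 16 (41.0%) were lower and 1 (2.56%) higher, with a median of -0.52. The shares over all tested genes were 15.8% lower and 14% higher. MMP7, a matrix protease, measured 7.51, 7.52 and 7.50 at 72 h, against 9.78, 10.06 and 9.97 at 24 h (change -2.43 ± 0.17). MMP1, a collagenase, was at or under 4 on all 72 h arrays and at least 4.68-fold lower. LOX, a collagen cross-linking enzyme, was the 1 rise, at 9.45, 9.45 and 9.76 at 72 h against 6.99, 6.94 and 7.09 at 24 h (2.55 ± 0.33).

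Of 26 tested junction genes, 6 were higher (23.1%) and 4 lower (15.4%), against 14% and 15.8% of all tested genes. ESRP1, an epithelial splicing factor, and CDH1, E-cadherin, rose by 2.13 and 1.12, and CLDN2, a leaky-junction claudin, fell by 1.54. Among 21 YAP/TEAD targets, 2 were higher (9.52%) and 5 lower (23.8%), with F3 (tissue factor) at 1.70. NT5E, an ectonucleotidase, changed by -1.06, a call lost when all its probe sets were averaged.

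Of 23 tested kidney injury genes, 1 was higher (CLU, clusterin, 0.72) and 5 lower (21.7%, against 15.8% of all tested genes). The lower ones included CD44 (-1.50) and SOX9 (-1.20). HAVCR1, the injury marker KIM-1, measured 10.22, 9.73 and 9.82 at 72 h, against 10.78, 10.71 and 10.80 at 24 h. It had a change of -0.84 ± 0.35 that did not pass (adjusted p = 0.0849), and it passed with the 6 arrays alone (0.00473). Its groups did not overlap, which was so for 53.6% of all tested genes. Of 15 tested genes of tubule transport and enzymes, 0 were higher and 1 (6.67%) was lower, namely KHK, ketohexokinase (-1.09).

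Lists for other stresses had shares near or below those over all tested genes (14% higher and 15.8% lower). Of 24 p53 targets, 4 were higher (16.7%) and 1 lower (4.17%), and of those 4 SESN2 is also a member of the ATF4 list. Among 22 NRF2 targets 2 were higher (9.09%) and 4 lower (18.2%), with SLC7A11 again the largest. Interferon-stimulated genes had 4 of 35 higher and 5 lower, cytokine and acute phase genes 2 of 22 each way, and apoptosis regulators 3 of 23 each way. TNFRSF10B, a death receptor induced by CHOP, was among the apoptosis genes that rose (1.12).

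Markers of other cell types differed in how far they were detected. All 8 leukocyte markers with a probe set and 7 of 8 endothelial ones were at or under 4 on all 6 arrays, PECAM1 and PTPRC included. Of 4 tested fibroblast markers 3 were lower, namely LUM (-1.86), DCN (-1.80) and S100A4 (-0.90), and the list's summed level was log2 9.92 to 10.2 at 72 h and 11.5 to 11.8 at 24 h. Collagen gene COL1A1, the other tested marker, averaged 7.46 ± 0.14 at 72 h and 8.37 ± 0.36 at 24 h (SD, n = 3 each) and was not called. The defining fibroblast markers PDGFRA and PDGFRB were at or under 4 on all 6 arrays. Of 12 distal nephron markers with a probe set 9 were at or under 4 on all 6, and 0 of 4 tested were called, with the claudin CLDN16 at 9.84 ± 0.77 at 72 h and 8.63 ± 0.42 at 24 h and the sodium channel subunit SCNN1A at 9.77 ± 0.23 and 9.55 ± 0.14, in that order. The endothelial marker ESAM was higher (1.51), and its part, and that of the fibroblast genes, in the matrix result was not tested.

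The Ota low-dose cultures give the same interval on separate arrays, so each vehicle change can be set beside theirs. Between 72 h and 24 h of low dose 1713 genes were called (15.5%), 1157 higher (10.5%) and 556 lower (5.04%). Quantile normalization gave 920 higher and 749 lower. Their median change over all tested genes was 0.08, against 0.00 in vehicle cultures. TXNIP again had the largest fall, of 6.20 ± 0.44 in low-dose cultures against 6.02 ± 0.44 in vehicle cultures, and DDIT3 changed by 5.24 and 5.10, and ATF3 by 5.24 and 5.58, in the same order. In the ATF4 list 33 of 42 were higher in low-dose cultures, in the ER list 13 of 29, and in the mitosis list 45 of 59 were lower. The mitosis count was 27 without low-dose 72 h replicate 2 and 28 without low-dose 24 h replicate 2. Of 56 DNA replication genes 2 were higher and 4 lower under low dose, and 0 were lower with any 1 low-dose array left out.

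The time changes themselves were then tested against each other (low dose minus vehicle). Of all tested genes 809 (7.34%) differed, 586 (5.31%) with a higher change under low dose and 223 (2.02%) with a lower one, or 439 and 301 after quantile normalization. DNA replication genes gave 44 of 56 with a higher change and 0 with a lower one. MCM10 changed by -0.48 under low dose and -3.96 under vehicle (difference 3.48 ± 0.21, adjusted p = 2.7e-07), PCNA by 0.04 and -1.46, and MCM2 by 0.03 and -1.07 (difference 1.10 ± 0.22, adjusted p = 0.00647). MKI67 changed by -0.86 and -2.33 (difference 1.47 ± 0.29, adjusted p = 0.00739), and 21 of 59 mitosis genes and 9 of 16 G1 genes had a higher change under low dose. The mitosis count was 10 to 24 and the G1 count 6 to 8 with 1 array left out. For MKI67 part of that gap lay at 24 h, where low-dose arrays measured 10.52, 10.56 and 10.67 and vehicle arrays 11.28, 11.36 and 11.12.

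In the ER list 15 of 29 and in the ATF4 list 8 of 42 had a lower change under low dose, and 0 a higher one. For TXNIP the difference was -0.18 ± 0.62 (adjusted p = 0.915), for DDIT3 0.14 ± 0.65 (0.940) and for HSPA5 -0.20 ± 0.30 (0.773). None of these 3 passed, which does not show that the changes were alike. The count for all genes was 399 to 700 when single arrays were left out, that for the ATF4 list 1 to 10, and that for the ER list 9 to 20. The ER list count was 9 without replicate 1 of low dose at 72 h or 24 h, or without replicate 1 or 3 of vehicle at 72 h.

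**Figure D4:**
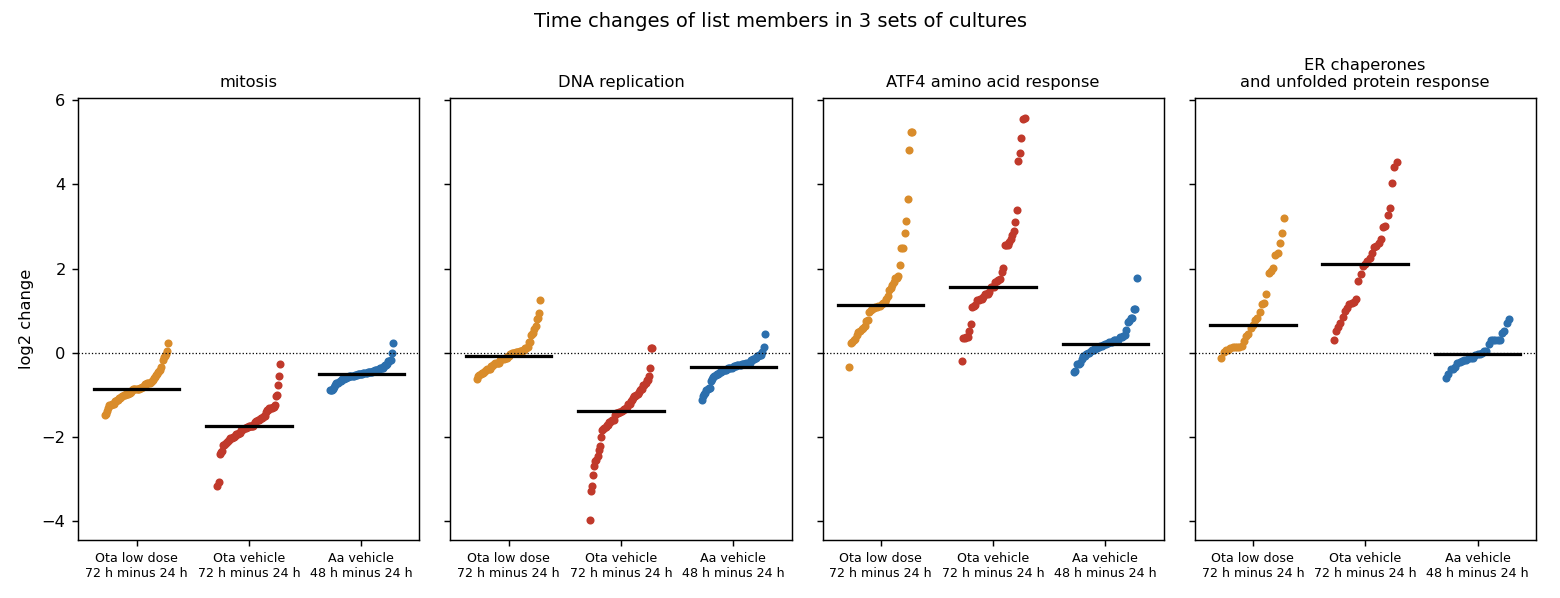
Log2 changes of tested members of 4 gene lists over time, 1 point a gene, in Ota low-dose cultures (72 h minus 24 h), Ota vehicle cultures (72 h minus 24 h) and Aa vehicle cultures (48 h minus 24 h). Black bars are medians; for DNA replication they are -0.07, -1.39 and -0.33 in that order.

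The Aa vehicle cultures, at 48 h and 24 h, are the other untreated time course, with an interval of 24 h in place of 48 h. In them 117 of 10684 tested genes (1.10%) were called, 63 higher (0.590%) and 54 lower (0.505%). Same-numbered Aa arrays deviated together, and with the replicate number as a block 451 were called, 237 higher and 214 lower. The block shares its effects between the Aa and the Ota vehicle arrays, so it is not a test of Aa pairs alone. MKI67 had a change of -0.71 ± 0.18 and CCNB1 of -0.71 ± 0.15, neither of which passed (adjusted p = 0.0775 and 0.0520), and 2 of 59 mitosis genes and 3 of 56 replication genes were called lower. With the block CCNB1 passed (adjusted p = 0.0196), MKI67 did not (0.0671), and 16 mitosis and 7 replication genes were lower. In the ATF4 list 3 of 42 rose, or 4 with the block. In the ER list 0 of 29 were higher and 0 lower. The higher count there was 1 with the block and 0 to 4 with 1 array left out. TXNIP measured 5.54, 5.99 and 8.49 at 48 h, against 9.26, 9.88 and 9.61 at 24 h, and fell by 2.91 ± 0.59 (adjusted p = 0.0458, or 0.0352 with the block). That call held in 6 of 12 alternatives, with adjusted p from 0.000186 to 0.168. Replicate 3 at 48 h lay closest to the 24 h arrays. These counts are fragile: leaving out 1 array at a time gave 7 to 944 called genes, with 944 without 48 h replicate 3.

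The difference between both vehicle time changes (Ota minus Aa) was tested over the 12 control arrays. It was called for 1491 genes (14%), 666 (6.23%) with a higher and 825 (7.72%) with a lower change in the Ota cultures. With the replicate number as a block shared by both sets of cultures 1827 were called, 831 with a higher and 996 with a lower change. With all 36 arrays the count was 1141. In the ER list 28 of 29 and in the ATF4 list 34 of 42 had a higher change, and 52 of 59 mitosis, 44 of 56 replication and 9 of 16 G1 genes a lower one. SDF2L1 changed by 4.42 in Ota and -0.60 in Aa vehicle cultures (difference 5.02 ± 0.33, adjusted p = 1.75e-05), and HSPA5 by 2.52 and -0.18 (difference 2.70 ± 0.23). For MKI67 the difference was -1.62 ± 0.26 (adjusted p = 0.00187), for MCM2 -0.995 ± 0.157 (0.00187) and for TXNIP -3.12 ± 0.83 (0.0286), the last called in 11 of 18 alternatives. The later times differ (72 h and 48 h), so a longer exposure and the set of cultures cannot be told apart.

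**Figure D5:**
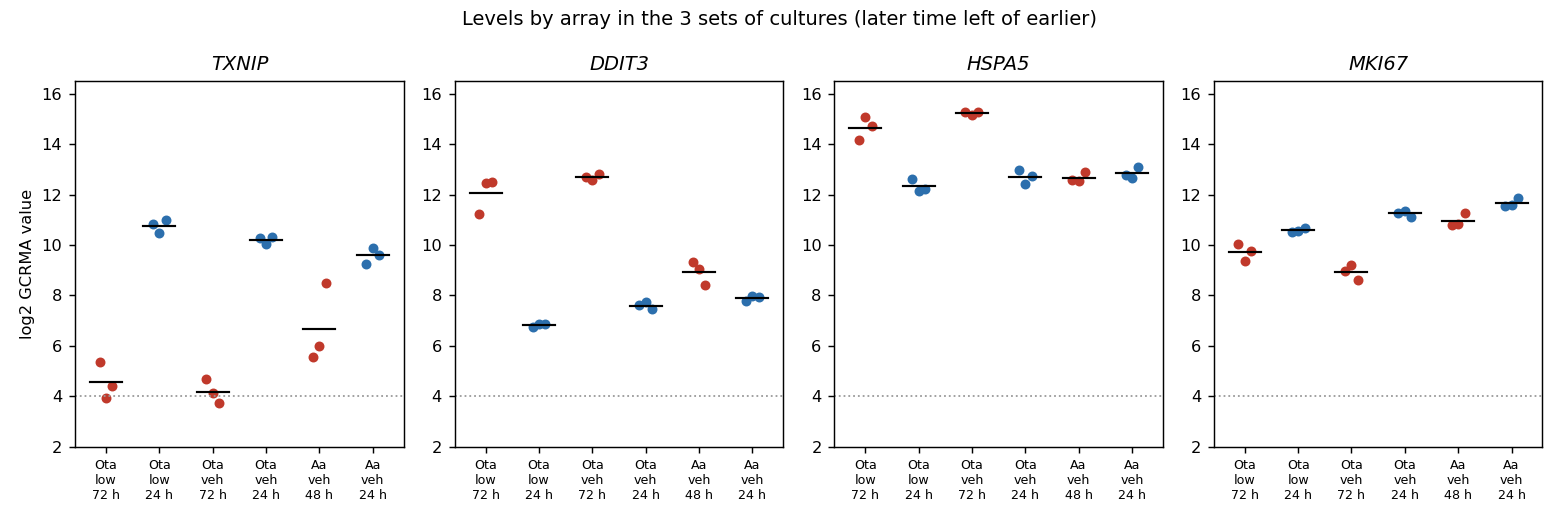
Log2 GCRMA values of TXNIP, DDIT3, HSPA5 and MKI67 on each array of the Ota low-dose (low), Ota vehicle (veh) and Aa vehicle cultures. The later time (red) is left of the earlier (blue), black bars are means of 3 arrays and the dotted line is log2 4; HSPA5 is near 15 in Ota vehicle cultures at 72 h and between 12.53 and 12.89 in Aa vehicle cultures at 48 h.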

How the data were processed

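Total RNA of HK-2 cultures was measured on single-colour Affymetrix arrays. The authors deposited 1 log2 value for each probe set and array, and the submitters' processing notes name GCRMA. Its version was not given in the sources used here, nor was it stated whether the 36 arrays were normalised jointly. GCRMA lowers the background model-wise, so values at or under log2 4 have no firm order.

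Of 54675 probe sets, 41091 name 1 gene, 1801 several and 11721 none, and 62 are controls. Each of 19775 genes was represented by its probe set with the highest mean. Genes above 4 on at least 3 of the fitted arrays were tested, 11029 in the 18 Ota arrays (12 residual degrees of freedom) and 10684 in the 12 control arrays (8). Group means were fitted with limma 3.58.1 (R 4.3.3, lmFit and eBayes) and p-values were adjusted by Benjamini-Hochberg over all tested genes at 0.05. Tables and plots used pandas 2.3.3 and matplotlib 3.10.9. The fit was tested on simulated data. A fold against a group that is at or under 4 on all arrays is given as a bound, with that group set to 4.

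The named genes are the 10 largest rises and falls among called genes without overlap, for each list the 3 called members with the largest change, where the list had at least 5 tested members and 30% of them called, and a panel chosen for proliferation, stress and nutrient sensing, together 92 genes. Other members are named as examples of their lists, chosen after their values were seen. The members and the 34 lists were chosen with earlier results of these data known. Some genes are not analysed here.

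The labels call the samples biological replicates and do not say how they were kept apart, so p-values measure the spread between these samples, and the labels give no batch. Replicate numbers are shared between the groups. Deviations of same-numbered arrays correlated at 0.224, 0.077 and 0.172, and those of the low-dose arrays at 0.117, 0.078 and 0.195, so they were not taken as pairs. Those of the Aa vehicle arrays correlated at 0.576, 0.59 and 0.575, every one over 0.1. The Aa comparison is therefore also given with the number as a block, fitted over the 12 control arrays. In that fit the Aa and Ota arrays of a number share the same effect. The Aa and low-dose checks were made after the calls had been seen.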

Additional observations from a re-analysis of the deposited data

Results flagged for a closer look

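Each result here was picked out because the change over time differed between 2 sets of cultures in a test of the difference itself (limma, log2 scale). Between the Ota low-dose and the Ota vehicle cultures (low dose minus vehicle), the differences were 3.83 for TDRKH, a Tudor domain protein, 3.48 for MCM10, 3.28 for KRT20, a keratin, 1.47 for MKI67 and 1.10 for MCM2. They were -2.95 for ALDH1L2, -2.78 for TMEM45A and -2.53 for NBR2. For TDRKH part of the gap lay at 24 h, where low-dose arrays averaged 4.03, near the floor, and vehicle arrays 6.22. At 72 h these averages were 6.27 and 4.62. The ALDH1L2 call held in 8 of 18 alternatives and the other 7 held in all 18.

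Between the Ota and the Aa vehicle cultures (Ota minus Aa), the differences were 5.16 for ATF3, 5.02 for SDF2L1, 4.18 for BCAT1, which transfers amino groups of branched-chain amino acids, 2.34 for ASNS (2.335 before rounding) and 1.97 for CHAC1. On the other side were TXNIP (-3.12), MCM10 (-2.85), CRYM, a thyroid hormone-binding protein (-2.63), MKI67 (-1.62), CCNB1 (-1.20) and MCM2 (-0.995). The TXNIP call held in 11 of 18 alternatives and the others in all 18. Later times differ between these cultures, and the vehicle arrays of 72 h and 24 h enter both sets of differences.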

How the results depend on the processing

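For vehicle 72 h against 24 h, 3282 genes were called. Leaving out 1 array gave 2526 to 2829, and the other alternatives gave 2938 to 4388. The 6 vehicle arrays alone gave the highest number. With the replicate number as a block the count was 3480, and the block changed the call of 1 named gene, CDKN1A (adjusted p = 0.0383). Leave-one-out counts were 57 to 58 lower for mitosis, 46 to 49 for replication, 10 to 11 for G1 and E2F, 36 to 38 higher for ATF4, 27 to 28 for ER chaperones and 10 for tRNA synthetases. Lower tRNA synthetases numbered 0, but 1 with all 36 arrays and 2 with the 6 arrays alone. Of the 92 named genes, none reversed, and HSPB1, CRYAB, TSC22D3, NT5E and UQCRC1 lost their call at least once. CDKN1A, CCNG2, DDIT4, FKBP5 and HAVCR1 gained one.

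Leaving out 1 array gave 770 to 1358 calls for the low dose over time (1713 in full), and 399 to 700 for low dose minus vehicle (809). Aa vehicle 48 h against 24 h gave 117 calls, 7 to 944 with 1 array left out, 451 with the replicate block and 51 with no filter on low values. A pairing of these arrays by number is read from their correlated deviations and is not stated in the labels. Ota minus Aa vehicle gave 1023 to 1438 with 1 array left out (1491 in full), and 1141 to 1827 in the other alternatives. The list counts of these comparisons were rerun as an addition made after seeing the data. The cause of these shifts was not tested. Values near log2 4 are limited by signal over background, which bears on TXNIP, MCM10, BLM, GAL and SCN3A at 72 h.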
